A study of Homo sapiens with 3 samples.

Results

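OR51B5, OR51B4 and OR51I1 encode olfactory receptors, and HBB encodes the adult beta-globin chain. All 4 genes lie in 1 stretch of chromosome 11 in which globin genes stand among olfactory receptor genes, and the question was whether this stretch was higher as a block with stable Set8b. Every probe set that the platform annotation maps to 1 of these 4 symbols alone was taken, 8 of the 41091 probe sets with a single symbol and of 54675 on the array. OR51B5 has 2 probe sets, OR51B4 and OR51I1 have 1 each, and HBB has 4. The genes were selected on signals of these same arrays, with the higher stable Set8b signal of the OR51 genes already known, so their values in all 3 comparisons are a description.

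The cells were U2OS, an established line from a human osteosarcoma, transduced with retroviruses and harvested on day 5. The first array holds cells given stable Set8b (labelled Set8_deltaPIP2), a mutant that the CRL4-Cdt2 ubiquitin ligase does not degrade. The second holds cells given wild-type Set8b (Wt-Set8b), and the third holds cells given the empty pMSCV vector. Each construct had 1 array, so differences cannot be set against a spread between cultures and no test was possible. Set8 is the enzyme that mono-methylates lysine 20 of histone H4.

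Olfactory receptors are G protein-coupled receptors that detect odorants in the nose, where each sensory neuron usually expresses a single receptor gene. The receptors of the OR51 family belong to class I, whose genes surround the beta-globin genes. HBB pairs with alpha-globin in the haemoglobin of adult red cells, while HBE1, further along the same cluster, is the globin of the embryo.

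The values below are quantile-normalized probe-set signals. A signal below 50 was taken as near background and was set to 50 before a difference was computed, so a difference against such a signal is given as at least that size, and none is given where both signals lie below 50. With this floor a difference can pass 2-fold only where the higher signal is 100 or more. On each array 53.8% of probe sets were below 50. Before normalization the array medians lay between 38.6 and 42.8. The 18 hybridisation spike-in probe sets were dimmer with stable Set8b than with vector, at a median ratio of 0.796 in the deposited intensities, while wild-type Set8b and vector had a ratio of 1.01, and the part of this in the results was not tested. The 27 poly-A spike-in probe sets set the vector array apart instead, at a median ratio of 0.463 to it with stable Set8b and 0.453 with wild-type Set8b, and of 1.01 between stable and wild-type Set8b. The 4 probe sets of KMT5A, the gene of Set8, lay between -0.76 and 0.90 log2 in the stable Set8b to vector comparison, and whether they read the transduced construct was not analysed here. The bone and mesenchymal genes COL1A1, SPARC and VIM were bright on every array by their brightest probe sets (at least 5773), whereas COL1A2 lay below 50 on all 3 arrays. Some markers differed on the stable Set8b array by their brightest probe sets. The mesenchymal gene CDH11 was at 1.30 log2 over vector, while the bone gene RUNX2 was at -0.62, and at 0.70 by its probe set 236858_s_at. The bone gene ALPL was at least 0.88 log2 higher over both other arrays, and CDH2 was at 0.75 over vector. Of 9 bone and mesenchymal genes listed 7 were compared with vector, and RUNX2 alone lay below 0, with 6 above. With the arrays centred on their medians 4 lay above 0 and 3 below. The T cell gene CD3D was at 1.40 log2 over wild-type Set8b and 0.90 over vector. The leukocyte gene CD79A read 117 with stable Set8b, 184 with wild-type Set8b and 99.6 with vector. That is -0.65 log2 for stable Set8b over wild-type Set8b and 0.24 over vector. The leukocyte genes PTPRC and CD14 lay below 50 on all arrays. The epithelial gene EPCAM read 169 with stable Set8b, 425 with wild-type Set8b and 431 with vector. The epithelial CDH1 went the other way, at 78.6, 17.8 and 38.1 in the same order. The epithelial KRT8 was bright on every array, at 3786, 3690.4 and 3449.5 in that order. The part of these markers in the results was not tested.

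With stable Set8b all 4 probe sets of the 3 receptor genes were at least 2-fold higher than with vector. Of the 4 HBB probe sets 0 were, with signals below 50 set to 50 throughout. Only 217232_x_at of HBB reached 100 on any array, so the other HBB probe sets could not pass 2-fold. Of all probe sets with 1 symbol and a signal of 50 or more on either array, 4.27% were at least 2-fold higher in that comparison, a share given beside the count with nothing read from it. Over wild-type Set8b, 3 of the 8 probe sets were at least 2-fold higher, all of them receptor probe sets, beside 3.96% of all such probe sets. For wild-type Set8b over vector 0 of the 8 passed 2-fold, beside 0.801% of all such probe sets. There only the OR51B5 probe sets and 217232_x_at of HBB reached 100 and could have passed. In bulk RNA, more cells that express a gene and more RNA per cell cannot be told apart.

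**Figure D1:**
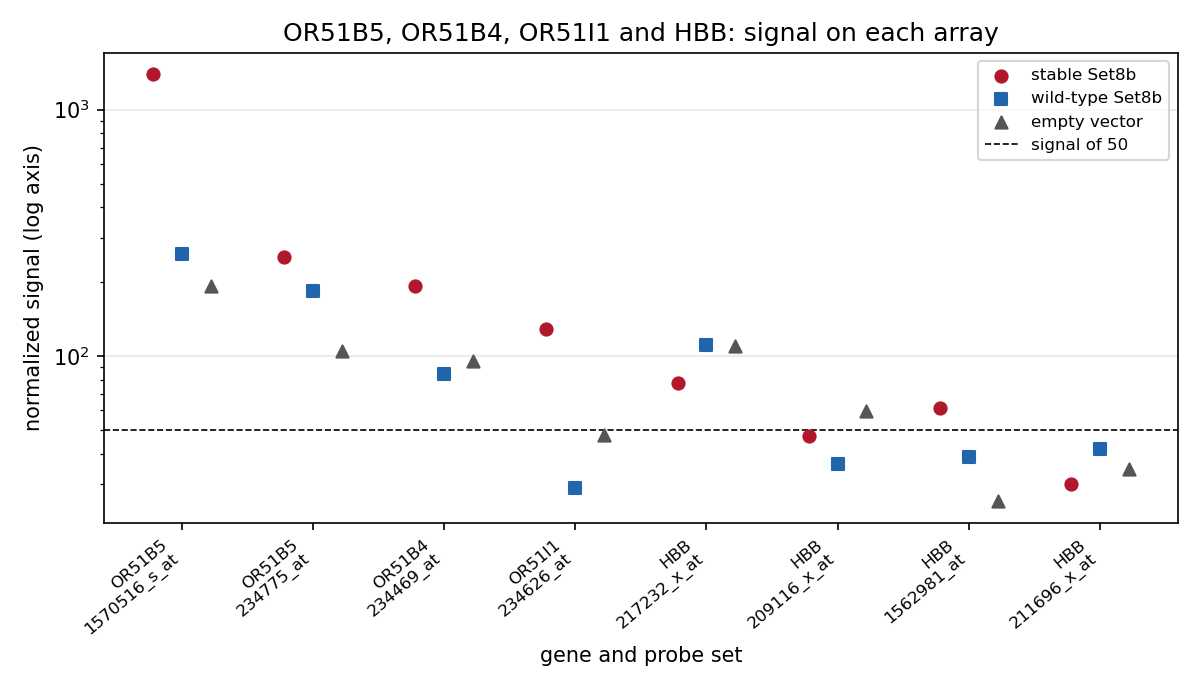
Normalized signal (log axis) of the 8 probe sets of OR51B5, OR51B4, OR51I1 and HBB on the stable Set8b, wild-type Set8b and vector arrays, 1 point per array. The stable Set8b point is the highest for all 4 receptor probe sets, while the HBB points lie between 25.6 and 110.4 with no common order, and the dashed line marks a signal of 50.

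OR51B5 was the brightest of the 4 genes. Its probe set 1570516_s_at read 1389 with stable Set8b, 259.6 with wild-type Set8b and 191 with vector. The stable Set8b array thus stood alone, and the other two arrays were within 0.44 log2 of each other. The difference was 2.86 log2 over vector, 7.27-fold, and 2.42 log2 over wild-type Set8b, 5.35-fold. In the comparison with vector it held rank 23 from the highest among 22709 probe sets. The second probe set of OR51B5, 234775_at, gave a different order of sizes. It read 251 with stable Set8b, 183 with wild-type Set8b and 105 with vector, so the wild-type Set8b array lay nearer to the stable Set8b array than to the vector array. Stable Set8b was 1.26 log2 above vector and 0.46 above wild-type Set8b, and wild-type Set8b was 0.80 above vector. Between the probe sets of this gene the difference from vector was thus 1.60 log2 apart, while the SD between probe sets of 1 gene was 0.38 log2 over 5945 genes. Both probe sets put OR51B5 more than 2-fold higher over vector, and they differ on whether it passed 2-fold over wild-type Set8b. Whether the probes of 1570516_s_at also read other transcripts was not tested.

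OR51B4 had 1 probe set, 234469_at. It read 192 with stable Set8b, 84.5 with wild-type Set8b and 95.6 with vector, above 50 on every array. Only the stable Set8b array was high, at 2.01-fold over vector (1.00 log2) and 2.27-fold over wild-type Set8b (1.18 log2). This gene lay just past 2-fold over vector, and with the arrays centred on their medians instead it was at 0.92 log2, short of 2-fold.

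OR51I1 was above background on 1 array alone. Its probe set 234626_at read 128 with stable Set8b, 29.0 with wild-type Set8b and 47.7 with vector. The difference was at least 1.36 log2, 2.56-fold, over both vector and wild-type Set8b, with the dim sides set to 50. No difference is given between wild-type Set8b and vector, since both arrays were below 50. Where the higher signal lay from 100 to 200, 7.25% of all probe sets were at least 2-fold higher with stable Set8b than with vector, and 4.43% where it was 1000 or more. OR51B4 and OR51I1 fall in the first of these ranges and 1570516_s_at of OR51B5 in the second.

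**Figure D2:**
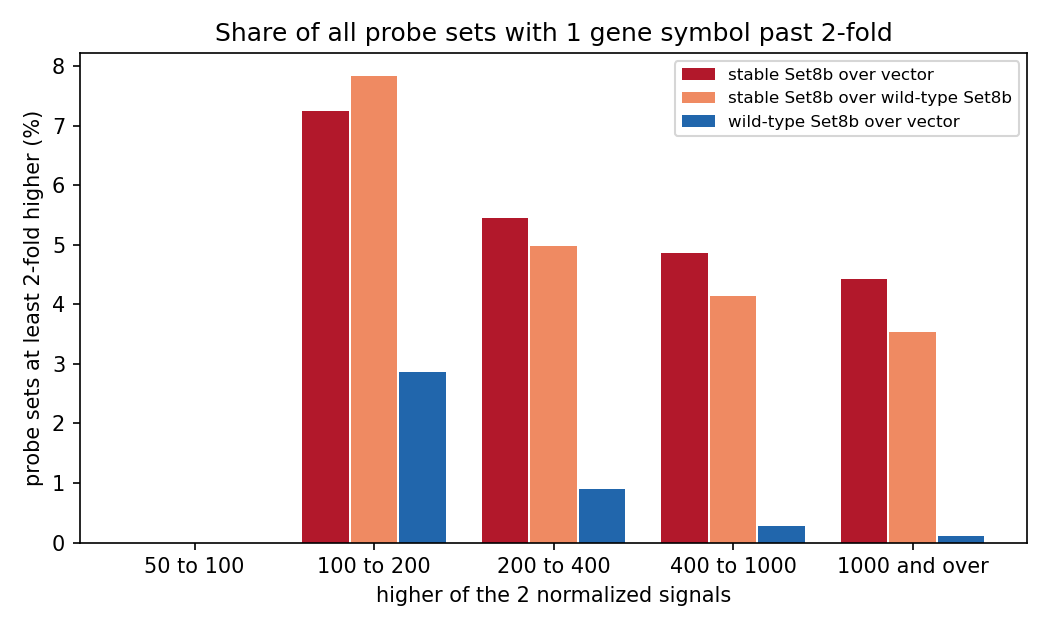
Share of all probe sets with 1 gene symbol that were at least 2-fold higher, by the higher of the 2 normalized signals, for the 3 comparisons. The share was 7.25% for signals from 100 to 200 and 4.43% for signals of 1000 and over in the stable Set8b to vector comparison; it was below 3% in every range between wild-type Set8b and vector, and from 50 to 100 no probe set can pass, because lower signals are set to 50.

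HBB showed no common direction. Its brightest probe set, 217232_x_at, read 77.7 with stable Set8b, 110.4 with wild-type Set8b and 109.6 with vector, a difference of -0.50 log2 between stable Set8b and vector and of 0.01 between wild-type Set8b and vector. Here the stable Set8b array was the lowest. Probe set 209116_x_at read 47.1 with stable Set8b, 36.4 with wild-type Set8b and 59.4 with vector, above 50 with vector alone. Probe set 1562981_at read 61.4 with stable Set8b, 38.8 with wild-type Set8b and 25.6 with vector, at least 0.30 log2 higher over both. Without that floor it was 1.26 log2 higher than with vector, past 2-fold, and 0.66 log2 higher than with wild-type Set8b. It was the only HBB probe set with its highest signal on the stable Set8b array. The last, 211696_x_at, read 30.2 with stable Set8b, 42.0 with wild-type Set8b and 34.6 with vector, below 50 on all arrays. Of these names, 3 end in _x_at, which marks probes that may also read related transcripts.

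The RefSeq gene order of GRCh38.p14 places 17 other genes between HBB and OR51I1, and 7 of these had a probe set of their own. Of these 7, 5 were below 50 on every array: the delta-globin gene HBD next to HBB, the pseudogene HBBP1, the noncoding RNA gene BGLT3, and the receptor genes OR51B6 and OR51M1. HBD, for example, read 7.50 with stable Set8b, 0.833 with wild-type Set8b and 8.60 with vector. OR51B6, the next gene after OR51B5 by start position, read 6.77 with stable Set8b, 22.6 with wild-type Set8b and 13.1 with vector. In order of start position OR51B6 and OR51M1, with no signal above background, thus come between OR51B5 and OR51I1, which were higher. However, OR51B6, OR51M1 and OR51I1 all lie within the annotated span of OR51B5. The gamma-globin genes HBG1 and HBG2 share their 3 probe sets, which carry both symbols and were not used.

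The remaining measured genes of this interval were HBE1 and OR51B2. HBE1 had the brightest of the globin probe sets with a single symbol, 205919_at, at 1432 with stable Set8b, 1203 with wild-type Set8b and 894 with vector. This is 0.68 log2 over vector and 0.25 over wild-type Set8b, short of 2-fold in both. The other HBE1 probe set, 217683_at, stayed below 50 on all arrays, with 20.6 at most, so the level of HBE1 depends on the probe set. OR51B2, a receptor gene between OR51B4 and OR51B5, read 71.9 with stable Set8b, 59.9 with wild-type Set8b and 38.9 with vector, at least 0.52 log2 higher than vector and 0.26 over wild-type Set8b.

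The annotated span of OR51B5, which has 3 RefSeq transcripts, contains 11 other genes or pseudogenes, OR51I1 among them. Of these 11, 5 had a probe set, and OR51I1 was the only one to reach 50 on any array. OR51I2, next to OR51I1, read 27.8 with stable Set8b, 4.37 with wild-type Set8b and 1.87 with vector. OR52D1 read 20.1 with stable Set8b, 13.1 with wild-type Set8b and 8.27 with vector. In both the stable Set8b signal was the highest, but all lay below 50 and no difference is given. Whether the OR51I1 probes read transcripts of OR51B5 was not tested.

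Counting outward to 40 genes on either side, 97 genes other than the 4 stood in the stretch, 16 of them had a probe set and 6 reached 50 on an array. None of the 6 was at least 2-fold higher by its brightest probe set in any of the 3 comparisons. The shares of all genes were 4.84% for stable Set8b over vector, 4.07% against wild-type Set8b and 0.679% for wild-type Set8b over vector. OR51B2 and UBQLNL stayed below 100 on all arrays, so only HBE1, TRIM5, TRIM6 and TRIM22 could be called. The median of the 6 was 0.60 log2 for stable Set8b over vector, with 4 above 0 and 2 below. For all genes it was 0.00, with 12668 compared. Both medians were taken with dim signals set to 50, and OR51B2 entered that of the 6 at its least size. On the far side of HBB the nearest measured gene, the pseudogene OR51A1P, read 12.3 at most. On the other side of the receptor genes UBQLNL, a ubiquilin-like gene, read 52.5 with stable Set8b, 38.8 with wild-type Set8b and 64.1 with vector.

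Beyond it lie the TRIM genes, which encode ubiquitin ligases with roles in antiviral defence, and their differences lay in both directions. TRIM6 read 574 with stable Set8b, 818 with wild-type Set8b and 1255 with vector, -1.13 log2 for stable Set8b over vector, the only one of the 6 genes past 2-fold lower. TRIM22, a known p53 and interferon target, read 748 with stable Set8b, 419 with wild-type Set8b and 421 with vector (0.83 log2 over vector). TRIM5, the retroviral restriction factor, read 815 with stable Set8b, 442 with wild-type Set8b and 478 with vector (0.77 log2 over vector), and its dimmer probe set 223830_s_at was at 1.46. In the stretch OR51B2, OR51B4, OR51B5 and OR51I1, the receptor genes that reached 50, had their highest signal with stable Set8b, as did HBE1. The other measured receptor genes lay below 50 on all arrays, with no difference given. Lower with stable Set8b than with vector were HBB by its brightest probe set and, farther out, UBQLNL and TRIM6. By these brightest probe sets the stretch as measured was thus not uniformly higher. From HBB to OR51I1 this rests on HBB alone, whose probe sets showed no common direction.

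**Figure D3:**
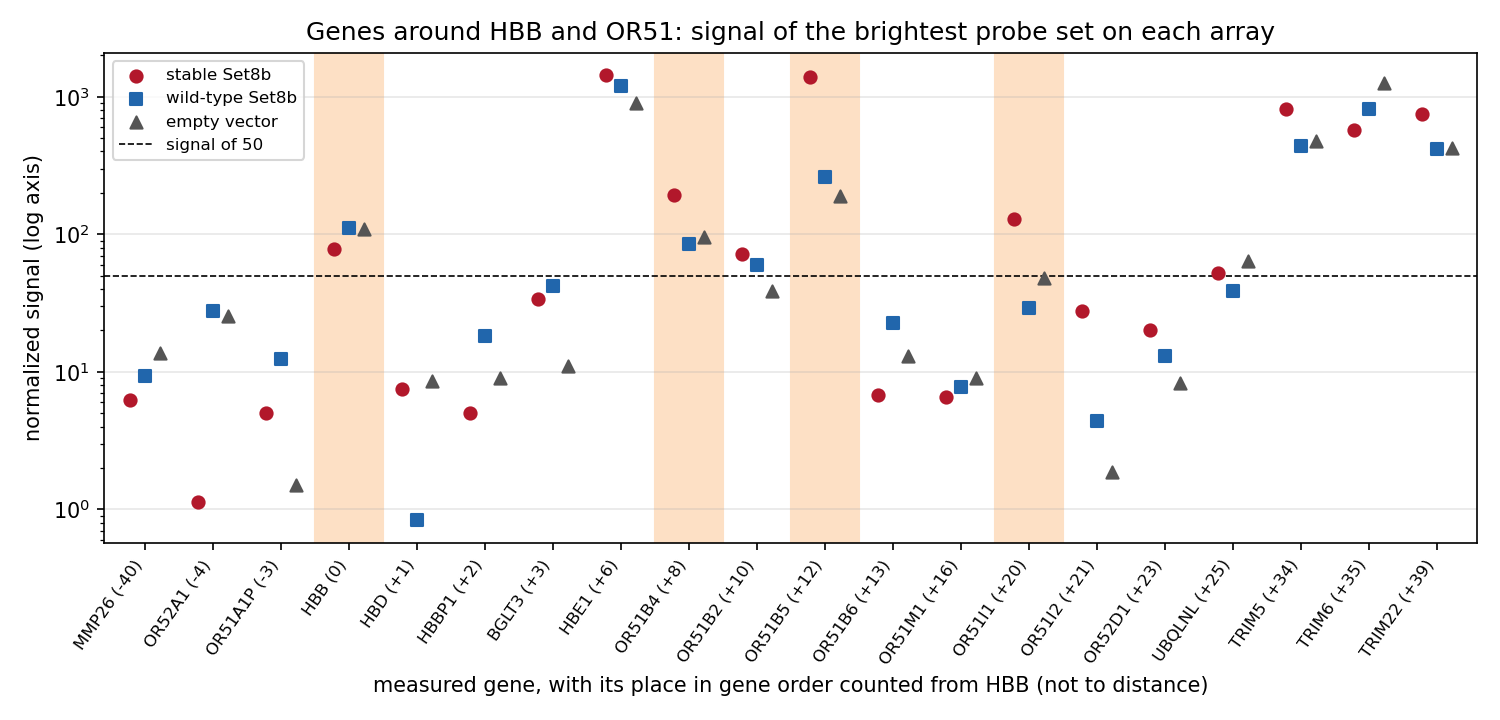
Normalized signal (log axis) on the 3 arrays for the 20 measured genes around HBB and OR51, by their brightest probe sets, in gene order and not to distance; shading marks HBB, OR51B4, OR51B5 and OR51I1. OR51B6 and OR51M1, drawn between OR51B5 and OR51I1, lie below 50 on all arrays, and HBE1 reads 894 or more on all of them. The annotated span of OR51B5 contains OR51B6, OR51M1 and OR51I1.

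Receptor genes elsewhere gave the setting for these levels. Of 99 other olfactory receptor genes and pseudogenes with a probe set, 87 were below 50 on all 3 arrays, 12 reached 50 on at least 1 array and 6 on all of them. None of the 10 that reached 50 on the stable Set8b or the vector array was at least 2-fold higher or lower in that comparison. The shares of all genes were 4.84% higher and 4.06% lower. With dim signals set to 50, the median of the 10 was 0.16 log2. OR51B2, OR10J1, OR1I1, OR1J4, OR7E14P and OR8D1 stayed below 100 on both arrays and could not pass 2-fold with this floor. Only OR7E104P, OR7E12P, OR7E156P and OR7E37P could be called, so nothing is read from the shares. OR51B5 ranked 2 among the 102 receptor genes on every array, after the pseudogene OR7E37P, which read 1877 with stable Set8b, 1560 with wild-type Set8b and 1398 with vector (0.42 log2 over vector) by a probe set ending in _x_at. Ranks of signals between probe sets also reflect how well each probe set hybridises, so they are no measure of transcript number.

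Among the other receptor genes with a signal of 50 or more, no difference from vector passed 2-fold with dim signals set to 50. OR7E104P was highest at 0.84 log2 (212 with stable Set8b, 208 with wild-type Set8b and 118 with vector), and there wild-type and stable Set8b were within 0.03 log2. OR51B2 followed at no less than 0.52, OR7E37P at 0.42, OR10J1 at no less than 0.23 and OR1I1 at 0.21. At the low end, OR7E156P was at -0.29 and OR8D1 at -0.08 or lower, and OR7E12P was at 0.05. OR1J4 read 51.1 with stable Set8b, 20.4 with wild-type Set8b and 1.40 with vector, at least 0.03 log2 higher than with vector, so its place in this order is not known. OR51B2 was the only other class I gene of 10 measured that reached 50.

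**Figure D4:**
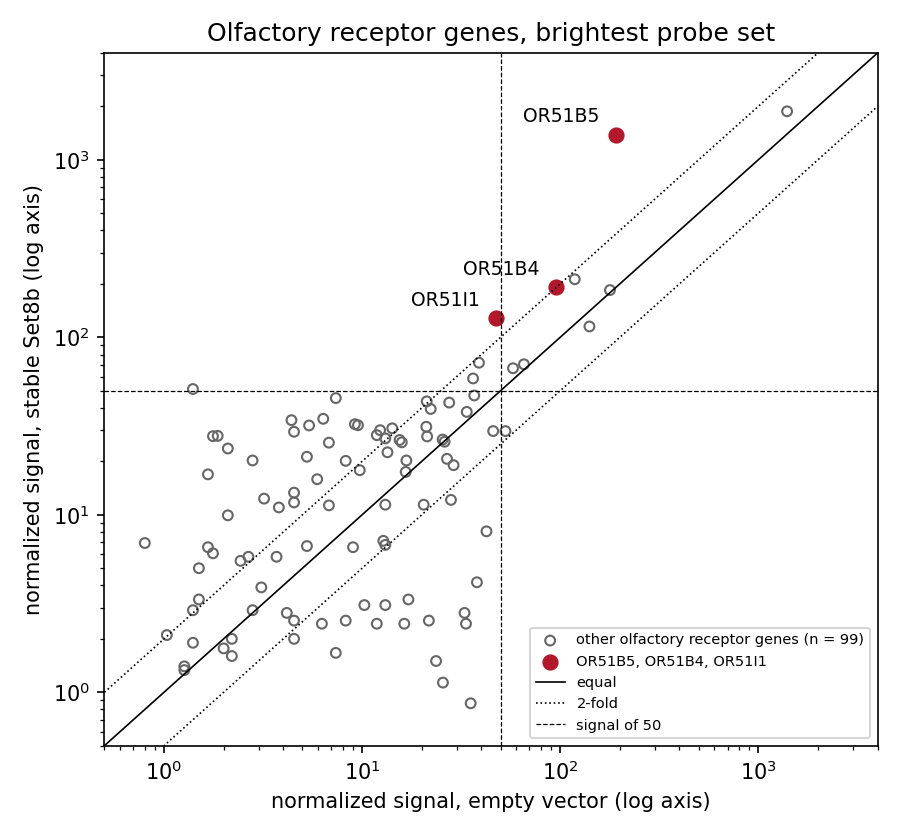
Normalized signal with stable Set8b (vertical, log axis) against empty vector (horizontal, log axis) for 102 olfactory receptor genes by their brightest probe sets; lines mark equal signal, 2-fold and a signal of 50. OR51B5, OR51B4 and OR51I1 lie on or above the upper 2-fold line in the range over 50 with stable Set8b, the other genes there lie below it except OR1J4, whose vector signal of 1.40 is near background.

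Genes of olfactory signalling did not share a direction. Of 13 listed, 11 were measured and 7 reached 50 on the stable Set8b or vector array. CNGB1 and REEP1 stayed below 100 on all arrays and could not pass 2-fold with this floor. Of the 7, 1 passed 2-fold upward and 1 downward, beside 4.84% and 4.06% of all genes, and their median was -0.28 log2. The higher one was ANO2, a calcium-activated chloride channel of olfactory cilia, which read 712 with stable Set8b, 135 with wild-type Set8b and 159 with vector (2.17 log2 over vector). Its other probe set lay below 50 on all arrays. The lower one was EBF1, a transcription factor of olfactory neurons and B cells, at -1.40 log2 (86.8 with stable Set8b, 253 with wild-type Set8b and 229.7 with vector), and at -0.96 by its next probe set. GNAL, the G protein of the odorant pathway, was at -0.94, ADCY3, its adenylyl cyclase, was at -0.28 and, by its other probe set, at 0.30, and OMP, the marker of mature olfactory neurons, read 2.53 at most.

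Red-cell genes were mostly at background. Of 13 listed globins 9 were measured, counting HBB, and 4 reached 50 on the stable Set8b or vector array. By their brightest probe sets 0 of these passed 2-fold, beside 4.84% of all genes higher and 4.06% lower. Those of the 4 outside the beta-globin stretch were CYGB, cytoglobin, and MB, myoglobin. MB read 3.60 with stable Set8b, 63.7 with wild-type Set8b and 78.1 with vector, at -0.64 or lower. Below 100 on all arrays, MB could not pass 2-fold with this floor, so its 0 is no absence of change. The CYGB probe sets went opposite ways: 1570410_at was at -0.52 log2 over vector, while 226632_at read 139 with stable Set8b, 40.7 with wild-type Set8b and 16.8 with vector, at least 1.48 log2 higher over both. By their brightest probe sets HBZ, HBM and HBQ1 of the alpha cluster read 6.27 at most. Of 12 erythroid genes 9 were measured and 3 reached 50, none past 2-fold by their brightest probe sets, beside the same shares of all genes. They were TFRC, the transferrin receptor that most dividing cells carry, at 0.29, EPOR at 0.12 and AHSP at no less than 0.28. AHSP stayed below 100 on all arrays and could not pass 2-fold. The other 3 EPOR probe sets that reached 50 lay below 0, at -0.68, -0.34 and -0.47 or lower, so its direction was not settled. ALAS2 and SLC4A1, which define red-cell precursors, lay below 50 on all arrays.

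Of 22 genes that regulate globin expression 21 were measured and 18 reached 50 on the stable Set8b or vector array. LMO2 and GATA2 stayed below 100 on both arrays and could not pass 2-fold with this floor. Of the 18, 0 passed 2-fold upward and 2 downward, beside 4.84% and 4.06% of all genes. Their median was -0.26 log2 with dim signals set to 50. MYB was at -1.55 log2, with 56.0 for stable Set8b, 219 for wild-type Set8b and 164 for vector. DNMT1, the maintenance DNA methyltransferase, was at -1.04 (1695 with stable Set8b, 3596 with wild-type Set8b and 3477 with vector). TAL1 was at -0.98 and MBD2, a reader of methylated DNA, at -0.76. BCL11A, the repressor of fetal globin, read 744 with stable Set8b, 801 with wild-type Set8b and 813 with vector. For stable Set8b over vector that was -0.13 log2, and -0.64 by the lowest of its 4 probe sets. GATA1, KLF1 and NFE2, the factors that drive adult globin in red-cell precursors, lay below 50 on all arrays.

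Genes elsewhere had nearly the same profiles over the 3 arrays. The profile of OR51B5 (1570516_s_at) was nearest to IL11, a cytokine, at a Euclidean distance of 0.05 between mean-centred log2 signals over the 3 arrays, then to LY96, a partner of the endotoxin receptor, and to F2RL2, a receptor of the thrombin receptor family. IL11 read 1699 with stable Set8b, 315 with wild-type Set8b and 242 with vector. Nearest to OR51B4 were the GTPase gene GEM, MR1, which presents antigen to T cells, and the lysosomal transporter gene MFSD1, and GEM was at 1.00 log2 over vector. Nearest to OR51I1 were PLA2G4C, GRM5 and C1QTNF1, whose wild-type Set8b and vector signals were all below 50, so this likeness rests on the stable Set8b array alone. For HBB (217232_x_at) they were ASMTL, EFNA5 and PKIA, each within 0.01. With 3 arrays a profile has few possible shapes, and such likeness is a description.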

How the data were processed

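Per the labels' protocols, Trizol was used for total RNA, which went as biotin-labelled material onto Affymetrix arrays. The authors deposited 1 linear intensity per probe set and array, and the software behind it is not given here. In every array they had a 2% trimmed mean of 250.04. Their log2 medians spanned 0.149, above the limit of 0.1 set for using them as they stood, so the arrays were quantile normalized. Of 54675 probe sets 62 were controls, and 41091 others had 1 gene symbol in the platform annotation. Of these, 41037 matched by Entrez identifier to a RefSeq table (GRCh38.p14), which served for names and gene order. The probe set with the highest mean log2 signal stood for a gene in counts of genes.

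Members, gene lists and the rule for naming genes were chosen with earlier results of these data known. All 4 members were named. Around them, genes past 2-fold in any comparison and the nearest measured genes were to be named, of each list up to 4 genes with the largest difference from vector and a signal of 50, and of other receptors the 5 highest and 3 lowest. Genes near background, TRIM5, TRIM22 and the markers of red cells and olfactory neurons were added after their values were seen. The calling steps were tested on simulated data, with planted changes larger than 2-fold in probe sets brighter on the vector array than any member. Changes near 2-fold or in dim probe sets were not planted. With 1 array per group there is no p-value, and precision is limited by the 3 arrays. Alternatives covered scaling, floor, threshold and probe-set choice. Python 3.11.15, numpy 2.4.6, pandas 2.3.3 and matplotlib 3.10.9 were used.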

Additional observations from a re-analysis of the deposited data

How the results depend on the processing

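No paired analysis was possible because each construct had 1 array. The counts turned on how dim signals were treated. For the 8 probe sets of the 4 genes, the count at least 2-fold higher, 4 for stable Set8b over vector and 3 for stable over wild-type Set8b, was 2 and 1 with a floor at a signal of 100, and 1 and 1 at 3-fold. With the floor lowered to 7.7 (the 20th percentile) or with no floor beyond a signal of 1 it was 5 and 3, the added one being HBB 1562981_at at 1.26 log2 over vector, and with the arrays centred on their medians it was 3 and 3. At 1.5-fold it was 1 for wild-type Set8b over vector. Of the genes around them, 0 were at least 2-fold higher in any comparison. Taking stable Set8b against vector, then stable against wild-type Set8b, then wild-type Set8b against vector, this became 3, 1 and 2 with the floor at the 20th percentile, and 4, 2 and 4 with no floor. At 1.5-fold it was 3 for stable Set8b over vector and 2 for stable over wild-type Set8b. With the mean over the probe sets of a gene it was 1 and 1. Of 99 other receptor genes, 0 became 22, 17 and 16 with the lower floor and 36, 28 and 27 with none, and at 1.5-fold 1 was higher with stable Set8b and 1 with wild-type Set8b than with vector. A lower floor lets signals below 50 count. Under these other settings only genes that were higher were counted, and the shares of all genes were not computed. Nothing about the genes is therefore read from these counts. With no floor other receptor genes were far lower with stable Set8b than with vector, such as OR52A1 at -4.50 log2 and OR1A1 at -3.98. Of 90 recomputed differences of single probe sets of the 4 genes, 82 moved by less than the SD that probe sets of 1 gene had among themselves, and 8 moved by more, all under another floor. Only 1 of the 90 turned its sign: HBB 217232_x_at between wild-type Set8b and vector, 0.01 log2, was -0.09 with the arrays centred on their medians. None past 2-fold did. Without probe sets ending in _x_at or _s_at, 3 of the 4 left were at least 2-fold higher over vector. With the arrays centred on their medians the median of all genes for stable Set8b over vector was -0.10 log2. The cause of these changes, other than the floor itself, was not tested.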
